A study of Mus musculus with 5 samples.

Results

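Subunits of condensin and cohesin were followed in ribosome pull-downs aimed at Drd2 neurons of the central amygdala (CeA), from fear conditioned and control mice. Markers of other cell types were also read in these pull-downs, so the cells that gave each subunit's RNA are not known. The 10 genes (Ncapg, Ncapd2, Ncaph, Ncapg2, Ncapd3, Ncaph2, Smc2, Smc4, Smc3 and Rad21) were taken by name from a deposited table of 15093 genes, and all 10 were found. The list was selected on results of the fear conditioned against control comparison, in which Ncapg stood out, so differences between these groups are given for the 10 genes as a description with no test. All animals were adult Drd2-TRAP mice, 8 to 12 weeks old by the study's methods, in which a Drd2-Cre transgene switches on a GFP-tagged ribosomal protein L10a from the Rosa26 locus, so that ribosomes of Cre-expressing cells can be pulled down (translating ribosome affinity purification, TRAP). Each library pooled bilateral 1 mm punches of 3 animals. The fear conditioned (FC) group had 3 libraries (2, 3 and 4) and the control group had 2 (6 and 7). The sources differ on the controls, which the sample labels and the methods call home cage animals and the study's results describe as tone-exposed without shock, and on the session that preceded tissue collection by 2 h, which is extinction in the labels and conditioning in the study's text. No genotype or drug distinguished the groups, and the library numbers are taken from the sample titles.

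Condensin and cohesin are ring-shaped complexes that hold or loop DNA. Each is built on a pair of SMC ATPases closed by a kleisin subunit, with further subunits made of HEAT repeats. Condensin I and condensin II share SMC2 and SMC4 and differ in their kleisin and HEAT subunits, and both compact chromosomes in dividing cells. Cohesin, built on SMC1A, SMC3 and RAD21, holds sister chromatids together and, in cells that no longer divide, such as neurons, forms chromatin loops with CTCF. Condensin I genes are textbook members of the mitotic programme, whereas cohesin genes are expressed in dividing and resting cells alike.

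Many mitotic genes carry a cell cycle genes homology region (CHR) near their start, a short element read by cell cycle repressor and activator complexes. The letters TTTGAA or TTCGAA were searched on both strands in the 250 bases before each RefSeq gene start (assembly GRCm38.p6). They were present for 6 of the 8 subunit genes with a promoter entry and for 19.6% of all 27025 genes with one. The entries did not cover Smc4 and Rad21. The stretches below are those of the condensin genes that hold the letters on the coding strand, shown to give the sequence around the match. Each runs 5′ to 3′ along the gene's strand over 80 bases, and the capitals mark the match.
Ncapg (chr5:45669845-45669924, plus strand): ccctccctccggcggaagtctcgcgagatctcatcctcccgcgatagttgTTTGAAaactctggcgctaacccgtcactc
Ncapg2 (chr12:116405356-116405435, plus strand): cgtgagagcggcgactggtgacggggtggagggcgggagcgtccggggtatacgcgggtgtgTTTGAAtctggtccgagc
Ncaph2 (chr15:89355639-89355718, plus strand): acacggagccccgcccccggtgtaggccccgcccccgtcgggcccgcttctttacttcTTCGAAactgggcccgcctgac
Ncapd2 (chr6:125191667-125191746, minus strand): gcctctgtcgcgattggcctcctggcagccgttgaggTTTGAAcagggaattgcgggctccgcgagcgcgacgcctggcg
The match began 30 bases before the start in Ncapg, 18 in Ncapg2, 22 in Ncaph2 and 123 in Ncapd2. Smc2 and a second start of Ncapd3 held it on the opposite strand, 145 and 249 bases before the start, while Ncaph and Smc3 had no match in this window. A match of letters is a description and not a binding site.

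The values are counts scaled to an effective library size (CPM), from which whole reads were recovered. The libraries held between 19605318 and 27937520 reads on genes. The control libraries differed from each other more than the FC libraries did, with a median absolute gap of 1.08 on the log2(CPM + 1) scale against 0.23 to 0.32 for the pairs of FC libraries. Control library 7 listed 2681 genes at 0, control library 6 listed 976, and the FC libraries between 159 and 349. A count of 0 allows up to 3 reads, which is 0.1002 CPM in control library 6 and 0.158 CPM in control library 7, counting error only.

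In the FC libraries, cohesin subunits and the condensin II kleisin Ncaph2 were present in ribosome-bound RNA at levels well above the rest of the set. Levels were compared between genes per kilobase of the deposited gene length. In the FC libraries Ncaph2 had 30.9 ± 1.18 CPM per kilobase (SD, n = 3), Rad21 15.7 ± 2.67 and Smc3 14.1 ± 0.859. The next genes were Ncapd2 with 1.96 ± 0.398, Ncapd3 with 1.66 ± 0.423, Smc2 with 1.54 ± 0.167 and Smc4 with 1.35 ± 0.0485 CPM per kilobase. Ncapg2 had 0.297 ± 0.102, Ncaph 0.221 ± 0.144 and Ncapg 0.0128 ± 0.0158 CPM per kilobase. The first 3 genes were each above the other 7 in 5 of 5 libraries. In control library 6 the closest values were 15.5 for Smc3 and 6.22 for Ncapd3. The step was narrowest in control library 7, with 13.9 for Ncaph2 and 11.4 for Smc2. In the order of FC means, Rad21 and Smc3 were not separated by their spread over the FC libraries. Nor were the neighbours from Ncapd2 to Smc4, nor Ncapg2 and Ncaph. The plot of levels per kilobase shows the step between 3 abundant and 7 scarce genes.

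**Figure D1:**
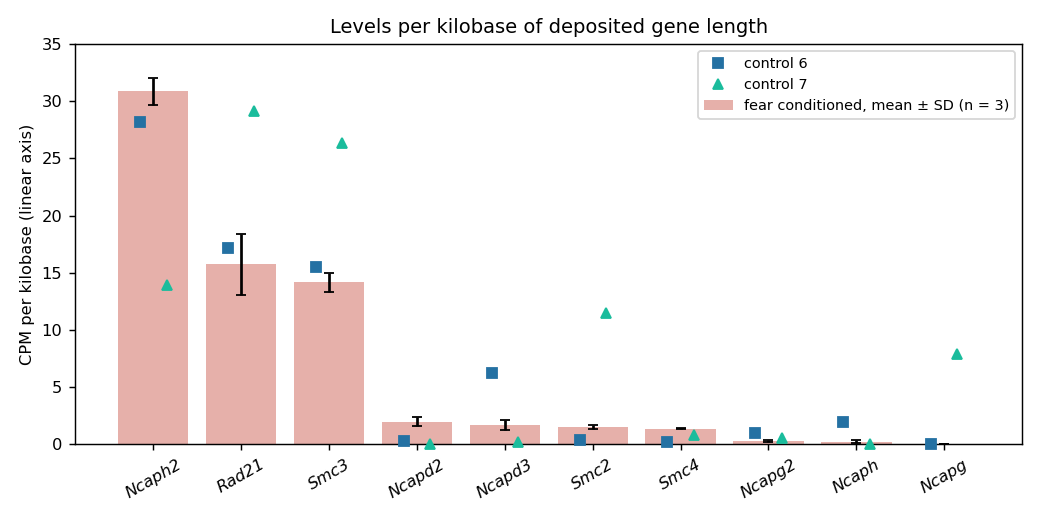
Level of each subunit in CPM per kilobase of gene length (linear axis). Bars are the mean of the 3 FC libraries with the SD, and squares and triangles are control libraries 6 and 7; Ncaph2, Rad21 and Smc3 stand above 13 in every library, while Smc2 (11.4) and Ncapg (7.89) rise above the other scarce genes in control library 7 alone.

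Among the subunits specific to condensin I, no gene held a steady level over the 5 libraries. Ncapg (ENSMUSG00000015880), a HEAT subunit, had 4, 0 and 1 reads in the FC libraries, 0 in control library 6 and 934 in control library 7, or 49.3 CPM. Its reads thus came almost entirely from 1 of 5 libraries, and the other 4 held 5 reads in all. In control library 7 its level per kilobase lay above that of 61.3% of the listed genes. Ncapd2 (ENSMUSG00000038252), the other HEAT subunit, had 228, 220 and 144 reads in the FC libraries, 44 in control library 6 and 0 in control library 7. These were 10.8, 9.16 and 7.15 CPM in FC against 1.47 and 0, so the groups did not overlap. Ncaph (ENSMUSG00000034906), the kleisin of condensin I, had 23, 41 and 7 reads in the FC libraries, 274 in control library 6 and 0 in control library 7. The 9.15 CPM of control library 6 were above all others, and the control group surrounded the FC values. The subunits of this complex thus peaked in different libraries, Ncapg in control library 7, Ncaph in control library 6 and Ncapd2 in the FC libraries.

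The subunits of condensin II were unequal in level. Ncaph2 (ENSMUSG00000008690), its kleisin, had 131, 122 and 130 CPM in the FC libraries and 117 and 57.7 in control libraries 6 and 7. FC values were close to each other and above both controls, the nearer of which was 1.10-fold below their mean and the other 2.22-fold. Ncapd3 (ENSMUSG00000035024), a HEAT subunit, had 7.02, 8.58 and 11.6 CPM in the FC libraries, 34.03 in control library 6 and 1.11 in control library 7. The control libraries lay on either side of the fear conditioned ones, 3.76-fold above and 8.18-fold below their mean. Ncapg2 (ENSMUSG00000042029), the other HEAT subunit, had 52, 53 and 24 reads in the FC libraries and 186 and 63 in the controls, or 2.47, 2.21 and 1.19 CPM against 6.21 and 3.32. Per kilobase, Ncaph2 exceeded Ncapg2 between 27.6-fold and 173-fold and Ncapd3 between 4.52-fold and 68.8-fold over the 5 libraries. RefSeq places Ncaph2 over parts of Sco2 and Tymp, and the library kit named in the labels (SMARTer with Nextera XT) does not record strand, so reads of overlapping genes cannot be told apart. Tymp, the overlapping gene with a row, held between 0 and 6.21 CPM.

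Smc2 (ENSMUSG00000028312) and Smc4 (ENSMUSG00000034349), the ATPases common to both condensins, were near parity in FC. Smc2 had 162, 229 and 179 reads in the FC libraries, 64 in control library 6 and 1226 in control library 7. Smc4 had 147, 159 and 143 reads in the FC libraries and 34 and 81 in the controls. The ratio of Smc2 to Smc4 per kilobase was 0.996, 1.30 and 1.13 in the FC libraries, 1.70 in control library 6 and 13.7 in control library 7. In CPM, Smc2 was 7.68, 9.54 and 8.89 in FC against 2.14 and 64.6, so that the control libraries were 4.07-fold below and 7.43-fold above the fear conditioned mean. Smc4 was at 6.97, 6.62 and 7.10 CPM in FC and at 1.14 and 4.27 in the controls, all of the former above the latter. Both were below all FC values in control library 6, whereas in control library 7 Smc2 was above and Smc4 below them.

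Cohesin subunits were the most even of the set across libraries. Smc3 (ENSMUSG00000024974), the cohesin ATPase, had 83.5, 82.5 and 74.6 CPM in the FC libraries and 87.9 and 150 in control libraries 6 and 7. Rad21 (ENSMUSG00000022314), the cohesin kleisin, had 53.3, 48.8 and 67.2 CPM in the FC libraries and 61.7 and 104 in the controls. Smc3 was lower in each FC library than in both controls, while for Rad21 FC library 4 lay above control library 6. In control library 6 Smc3 was 1.10-fold and Rad21 1.09-fold the FC mean, and in control library 7 the same genes were 1.86-fold and 1.85-fold the FC mean. The ratio of Smc3 to Rad21 per kilobase stayed between 0.703 and 1.07 over the 5 libraries. That of Smc3 to Smc1a, the other ATPase of cohesin, was between 0.889 and 1.03 in 4 libraries and 3.97 in control library 7. The plot of CPM by library shows the 3 abundant genes as tight groups of points and a wider spread for each of the 7 scarce ones.

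**Figure D2:**
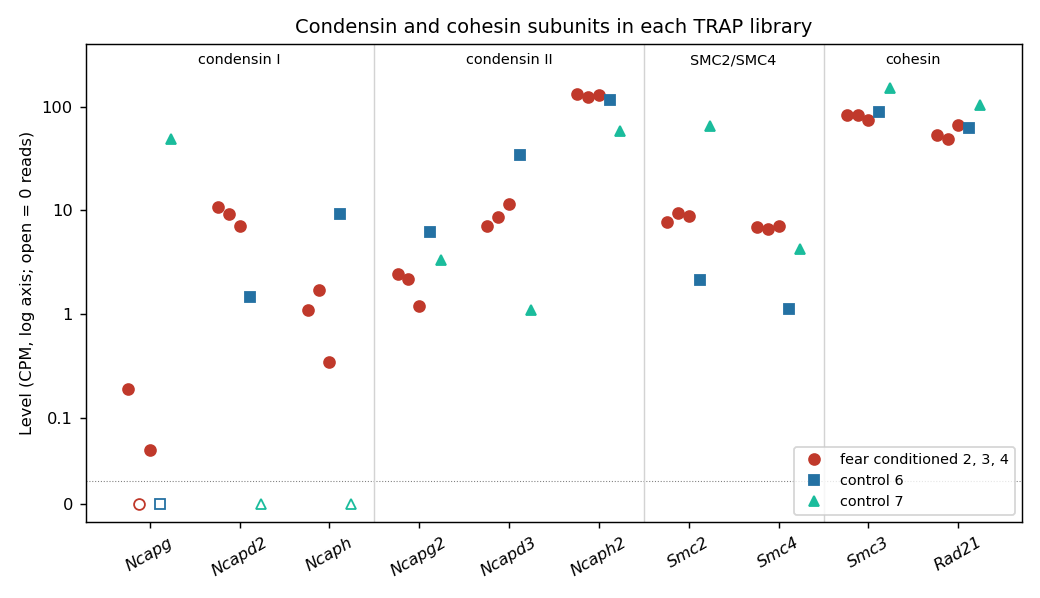
Level of each subunit in each library in CPM on a log axis, with 0 reads drawn as open symbols on the lowest line. Circles are the 3 FC libraries, squares control library 6 and triangles control library 7; FC values lie close together for most genes, while the 2 controls lie far apart for Ncapg (0 and 49.3), Ncaph (9.15 and 0), Ncapd3 (34.03 and 1.11) and Smc2 (2.14 and 64.6).

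The 4 widest gaps between the control libraries were all in scarce genes of the set, although not every scarce gene had one, and in the whole table gaps were wider at low levels. On the log2(CPM + 1) scale, control library 7 minus control library 6 was 5.65 for Ncapg, 4.39 for Smc2, -3.34 for Ncaph and -4.06 for Ncapd3. The absolute gap of Ncapg was larger than that of 99.8% of the 13560 genes with a mean of at least 1 CPM, that of Smc2 larger than 97.3%, that of Ncapd3 larger than 96.0% and that of Ncaph larger than 91.0%. For Ncaph2, Smc3, Rad21 and Ncapg2 the absolute gap was below the median of all genes, with signed values of -1.002, 0.76, 0.75 and -0.74. Control library 7 was the highest or the lowest of the 5 libraries for 8 of the 10 subunit genes, and for 75.6% of all genes tested. Of the 2508 genes with a fear conditioned mean of 5 to 15 CPM, the range of Ncapd2, Ncapd3, Smc2 and Smc4, 21.8% had 3 reads or fewer in control library 7 and 2.87% in control library 6. In the same range 5.26% were more than 5 times their fear conditioned mean in control library 7, as Smc2 was. Of the 243 genes under 0.5 CPM, the range of Ncapg, 57.6% were more than 5 times that mean in control library 7. Such genes reached the minimum mean of 1 CPM only through the control libraries. Of the 2872 genes with 0.5 to 5 CPM, the range of Ncaph and Ncapg2, 46.3% had 3 reads or fewer in control library 7. In that range 25.9% were more than 3 times their fear conditioned mean in control library 6. Of the 2784 genes with 50 to 150 CPM, the range of Ncaph2, Smc3 and Rad21, 0.108% had 3 reads or fewer in control library 7 and 0% in control library 6.

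**Figure D3:**
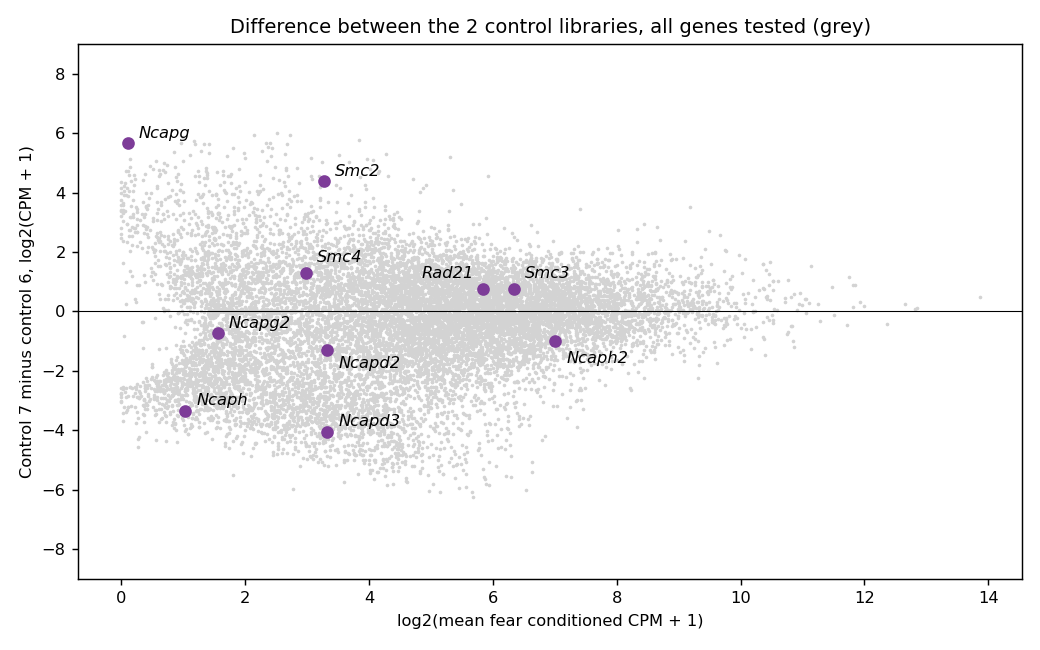
Control library 7 minus control library 6 in log2(CPM + 1), against the log2 of the mean fear conditioned CPM plus 1. Grey points are the 13560 genes tested and purple points the 10 subunit genes; the cloud narrows to the right, and Ncapg (5.65) lies at its upper edge on the left.

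A split as seen in Ncapg, with 3 reads or fewer in one control library and at least 100 in the other, occurred in 1636 of the 13560 genes tested (12.1%). Of these, 236 were low in control library 6, as Ncapg was, and 1400 in control library 7, as Ncaph was. In 37 of the 236, Ncapg included, every FC library held 5 reads or fewer as well. The 5 genes nearest to Ncapg by Euclidean distance of log2(CPM + 1) over the 5 libraries were Angptl7, Gm17529, 5430427O19Rik, Ephb4 and A930019D19Rik, at distances of 0.65, 0.81, 0.98, 0.98 and 1.01. Angptl7, an angiopoietin-like secreted protein, had 0, 0 and 6 reads in the FC libraries, 0 in control library 6 and 649 in control library 7. Ephb4, an ephrin receptor known from veins, had 8, 4 and 12 reads in the FC libraries, 1 in control library 6 and 565 in control library 7. All 5 of these genes had at least 477 reads in control library 7 and at most 1 in control library 6. In RefSeq, Ncapg overlaps Lcorl, a transcription factor gene. Lcorl had 341, 473 and 386 reads in the FC libraries, 294 in control library 6 and 61 in control library 7, so the library with the Ncapg reads had the fewest of Lcorl.

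Between the groups, fear conditioned minus control, the difference of mean log2(CPM + 1) was 2.66 (standard error 0.64) for Ncapd2, 1.23 (0.62) for Smc4 and 0.63 (0.33) for Ncaph2. These are the 3 genes whose FC libraries were all above both controls. For Ncapg2 the difference was -0.95 (0.58) and for Smc3 -0.51 (0.29), and in both all FC libraries lay below both controls. The groups thus did not overlap for 5 of the 10 genes, and for 36.4% of all genes tested; since the list was chosen on this contrast, nothing is read from the comparison. For the other 5 genes the groups overlapped, with differences of -2.72 (1.54) for Ncapg, -0.69 (1.03) for Ncaph, 0.20 (1.17) for Ncapd3, -0.57 (1.23) for Smc2 and -0.52 (0.33) for Rad21. The median was -0.51 over the 10 genes and 0.08 over all genes tested.

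Which control library was used decided several of these values. Against control library 6 alone the difference was -1.83 for Ncapd3 and 1.62 for Smc2, and against control library 7 alone it was 2.23 and -2.76, so both turned direction. The difference of Ncaph2 was 0.13 against control library 6 and 1.13 against control library 7, that of Smc3 -0.13 and -0.89, and that of Rad21 -0.14 and -0.89. Ncapd2 remained higher in FC against either control library, at 2.01 and 3.31, as did Smc4, at 1.89 and 0.58. Ncapg2 was lower against either, at -1.31 and -0.58. Ncapg reached -5.54 against control library 7, and against control library 6 it fell below the minimum mean of 1 CPM, as Ncaph did against control library 7. The sign also depended on processing for Ncapd3, which was -0.30 after quantile normalization, and for Ncaph, which was 0.04 with a pseudocount of 0.1. On recovered reads, edgeR and DESeq2 gave log2 fold changes of -0.91 and -0.94 for Ncapd3, -1.98 and -2.01 for Smc2, and -2.08 and -2.12 for Ncaph. For Ncapg DESeq2 gave -8.36, a fitted value that rests on control library 7 and is no bound. The filter used with edgeR left the gene out, because it had more than a few reads in control library 7 alone.

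**Figure D4:**
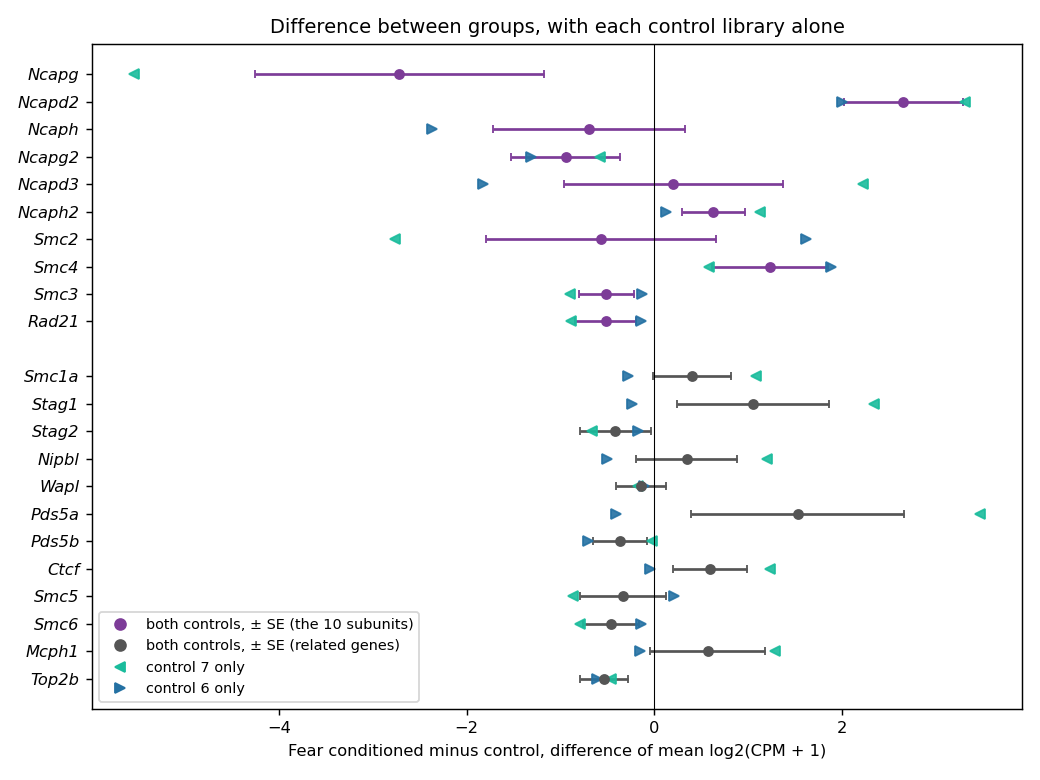
Fear conditioned minus control difference of mean log2(CPM + 1) for the 10 subunit genes (purple) and 12 related genes (grey), with the standard error from limma, and the same difference against control library 7 alone (left-pointing triangles) or control library 6 alone (right-pointing triangles). The triangles lie on opposite sides of 0 for Ncapd3 (2.23 and -1.83), Smc2 (-2.76 and 1.62) and several related genes.

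Genes that work with condensin and cohesin were listed by function and tested. Of 34 genes listed (other cohesin subunits, loaders and release factors, separation factors, the complex of SMC5 and SMC6, and chromosomal partners of condensin), 24 were matched to the table and 23 passed the minimum mean. With limma, 0 of the 23 passed an adjusted p of 0.05 with an absolute log2 fold change over 0.5, as did 0 of all 13560 genes (0%). At an unadjusted p under 0.05 there were 0 of the 23 and 2280 of all genes (16.8%). On the recovered reads, edgeR's quasi-likelihood test called 0 of the related genes and 0 genes in all, and DESeq2 called 0 of the related genes and 1155 of 14507 genes in all (7.96%). The groups did not overlap for 4 of the 23 genes, Smc6, Nsmce4a, Smchd1 and Top2b, against 36.4% of all genes tested. In these 4 the FC libraries were lower, a direction that 16.1% of all genes tested shared. The median log2 fold change of the 23 genes was -0.02. Calls with a control library left out are not given, because a lone control library is then assumed to vary like the other group.

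Cohesin's other subunits were measured at levels near those of Smc3 or below. Smc1a had 83.8, 79.9 and 79.6 CPM in the FC libraries and 98.5 and 37.6 in control libraries 6 and 7, a log2 fold change of 0.41 (standard error 0.42, limma adjusted p = 0.644). Control library 6 was above and control library 7 below all FC values. Of the STAG subunits, which bind the kleisin, Stag2 had 21.8, 37.8 and 32.1 CPM against 33.7 and 47.6, and Stag1 had 14.7, 14.95 and 21.1 against 19.9 and 2.48. Per kilobase, in the FC libraries, this was 3.59 ± 0.954 for Stag2 and 1.66 ± 0.353 for Stag1 (SD, n = 3). Their log2 fold changes were -0.42 (0.38) and 1.05 (0.81), with limma adjusted p values of 0.598 and 0.534.

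Nipbl, which loads cohesin onto DNA, had 43.1, 32.5 and 43.2 CPM in the FC libraries and 56.2 and 16.5 in control libraries 6 and 7. Wapl, which releases cohesin, had 52.0, 75.3 and 59.2 CPM against 66.4 and 69.3. The control libraries lay closer together for Wapl than for Nipbl. Within FC the SD was 19.2% of the mean for Wapl and 15.6% for Nipbl. Neither passed the test, with log2 fold changes of 0.35 (standard error 0.54) and -0.14 (0.27) and limma adjusted p values of 0.768 and 0.811. Pds5a and Pds5b regulate the residence of cohesin on chromatin. Pds5a had 8.06, 10.4 and 12.4 CPM in FC, 13.8 in control library 6 and 0 in control library 7, and Pds5b had 67.2, 84.0 and 78.3 CPM against 125 and 77.6. Pds5a was thus at 0 in control library 7, as were Ncapd2 and Ncaph, while Pds5b, its more abundant paralog, lay within the FC range there. Their log2 fold changes were 1.53 (1.14) and -0.37 (0.29), with limma adjusted p values of 0.516 and 0.544. Ctcf, the zinc finger protein at the anchors of cohesin loops, had 98.4, 109 and 112 CPM in FC and 109 and 44.5 in the controls, a log2 fold change of 0.60 (0.40) with an adjusted p of 0.471 from the same limma fit.

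Smc5 and Smc6, the ATPases of the third SMC complex, which acts in DNA repair, were both highest in control library 7. Smc5 had 17.8, 23.3 and 20.2 CPM in FC and 17.4 and 38.0 in control libraries 6 and 7, and Smc6 had 52.1, 45.7 and 48.0 against 53.7 and 84.4. Their ratio, Smc6 to Smc5 per kilobase, stayed between 1.21 and 1.90 over the 5 libraries, unlike that of Smc2 to Smc4. The log2 fold changes were -0.33 (0.46) and -0.47 (0.30), with limma adjusted p values of 0.740 and 0.461. Mcph1, an inhibitor of condensin II, had 10.7, 10.2 and 10.03 CPM in FC and 11.5 and 3.64 in the controls (log2 fold change 0.57, standard error 0.61, limma adjusted p = 0.655). Top2b, the topoisomerase II of resting cells and neurons, had 54.4, 74.5 and 61.6 CPM in FC and 96.4 and 87.1 in the controls. All FC values of Top2b lay below both controls, and its log2 fold change of -0.53 (0.26) had the lowest adjusted p of the list, 0.352 (limma). Top2a and Mki67, which mark dividing cells, are not analysed here.

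Summed levels of marker genes are given by library, since for several lists they lay apart in the control libraries. With limma no gene of any marker list passed both cutoffs, and neither did any of the 13560 genes tested. Groups did not overlap for 36.4% of all genes tested (16.1% lower in FC). All 6 Drd2 neuron genes were higher in FC without overlap. Lower without overlap were 6 of 9 choroid plexus genes tested, 4 of 7 oligodendrocyte, 4 of 6 astrocyte and 2 of 5 oligodendrocyte precursor genes. Each remaining list held at most 2 such genes in either direction. The sums of the groups overlapped for genes of oligodendrocyte precursors, microglia, endothelium and young neurons. Of 20 genes of dividing cells listed, 12 were matched, with summed levels of 13.4, 13.4 and 9.63 CPM in the FC libraries, 28.1 in control library 6 and 14.9 in control library 7. In control library 7, which held the Ncapg reads, 8 of these 12 genes were at 0, as were 17.8% of all listed genes. Counts of 3 reads or fewer were more common at low levels. Of tested genes with a fear conditioned mean of 0.5 to 5 CPM, 46.3% had 3 reads or fewer in that library. This share is not the same measure as the zeros, and only 7 of the 12 genes passed the minimum mean. In control library 6, where Ncaph and Ncapd3 were highest, 4 of the 12 were at 0 and 6 had their highest value. Of all listed genes 6.47% were at 0 in that library, and 4065 of the 13560 tested had their highest value there. Endothelial genes (6 of 6 matched) summed to between 7.83 and 30.1 CPM in FC, to 27.7 in control library 6 and to 206 in control library 7, none of them at 0 in any library. The 6 did not move as 1, with 3 highest in control library 7, 2 highest in control library 6 and 1 lowest in control library 7. Of the 13560 genes tested, 4327 were highest and 5922 lowest in control library 7. Choroid plexus genes (10 of 10 matched) summed to between 63.0 and 113 CPM in FC and to 1051 and 1472 in the controls, with 2 of the 10 at 0 in control library 7. Although the sum was larger in control library 7, 6 of the 10 were highest in control library 6 and 3 in control library 7. Oligodendrocyte genes (7 of 7) summed to between 1251.5 and 2650 CPM and to 2726 and 5316, and astrocyte genes (6 of 6) to between 571 and 651 and to 1315 and 1015, with no gene of either list at 0. Genes of oligodendrocyte precursors (5 of 5) summed to between 46.8 and 90.8 CPM and to 136 and 90.3, and microglia genes (6 of 6) to between 39.6 and 71.3 and to 76.4 and 60.0, again with none at 0. Genes of young neurons (4 of 4) summed to between 15.6 and 18.4 CPM and to 34.8 and 14.3, with 3 of the 4 at 0 in control library 7. Genes of Drd2 neurons (6 of 6) summed to between 19099 and 20788 CPM in FC and to 7609 and 11954 in the controls. The part of these cells in the levels of condensin and cohesin genes was not tested. In pull-downs from pooled tissue, the number of cells of a type and the RNA per cell cannot be told apart. Nor can either be told apart from the amount of RNA carried over from cells without the tag.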

How the data were processed

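Ribosome-bound RNA of 5 libraries (3 fear conditioned, 2 control) was analysed. The authors deposited a normalized signal per gene, in CPM of an effective library size, with a gene length; the submitters' processing notes name DESeq and mm8 and the study's methods name Tuxedo and DESeq, without saying which program aligned or counted. Dividing each value by the lowest non-zero value of its library gave a whole number in 100% of cases, with a tolerance of 0.01; the quotients serve as recovered reads. Groups were compared with limma 3.58.1 (lmFit, eBayes with a trend) on log2(CPM + 1) for 13560 genes with a mean of at least 1 CPM, two-sided, with Benjamini-Hochberg adjustment over all of them. The cutoffs were 0.05 for the adjusted p and 0.5 for the absolute log2 fold change. Fold changes on this scale understate changes of low genes. The labels do not say whether libraries came from separate cohorts of animals, and p-values measure the spread between these pools.

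Alternatives on recovered reads used edgeR 4.0.16 (quasi-likelihood, TMM) and DESeq2 1.42.0. Other alternatives were a pseudocount of 0.1, no filter, quantile normalization, a variance weight for each group, no fold change cutoff, and each library left out. The subunits, the related genes and the marker lists were chosen with earlier results of these data known. Named are the subunits, 14 related genes fixed by name (12 of them matched) and the 5 genes nearest to Ncapg. Nsmce4a and Smchd1 were named after their values were seen. Shares by level were computed after the values were seen. Wapl was matched by its identifier. Fits ran in R 4.3.3 and summaries in Python 3.11.15 with pandas 2.3.3.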

Additional observations from a re-analysis of the deposited data

How the results depend on the processing

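The count of genes past both cutoffs was 0 with limma under a pseudocount of 0.1, no filter, quantile normalization, group variance weights and no fold change cutoff, and with edgeR's quasi-likelihood test, against 1155 with DESeq2. With 1 library left out it ranged from 0 to 8025 over all genes and from 0 to 12 over the related genes, the extremes coming without control library 6, and a lone control library is then assumed to vary like the other group. The number of genes whose groups did not overlap was 4930 with all 5 libraries and ranged from 5410 to 11638 with 1 library left out. Fewer libraries make such a separation easier to meet, most of all with 1 control library, so a rise was built in. The cutoffs of 3 and 100 reads for a split between control libraries gave 1636 genes, and 0 against at least 30 reads gave 1546. Without control library 7, the log2 fold change of 10 of the 23 related genes, none of which had passed the test, turned direction. For the 7 of these that the naming rule covers, values with each library left out in turn ranged from -0.28 to 1.09 for Smc1a, -0.24 to 2.35 for Stag1, -0.87 to 0.21 for Smc5, -0.51 to 1.20 for Nipbl, -0.41 to 3.48 for Pds5a, -0.040 to 1.24 for Ctcf and -0.15 to 1.29 for Mcph1. The median log2 fold change of all genes was 0.08 with limma and -0.11 with DESeq2, which differ in input, model, scaling and genes tested. Ncapg had no value with edgeR or without control library 7, and Ncaph none without control library 6, because of the filters of these fits. No paired analysis was possible because the groups share no replicate numbers. The fewest reads over all libraries were 345 for Ncaph, 378 for Ncapg2, 564 for Smc4 and 636 for Ncapd2, and 934 of the 939 reads of Ncapg were in 1 library.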
